A study of Mus musculus with 2 samples.

Results

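The cells described here carried at least 1 transcript of Trdc, the constant region gene of the T cell receptor δ chain, although the authors' annotation had named them CD8αα T cells. They were found by joining that annotation, in which the class is written cd8aa, to the deposited RNA counts: 102 of the 11929 cells met both conditions, 82 of the 194 cells of the class in wild type (WT) mice and 20 of the 410 in dnTGFβRII (TG) mice. The cells were thus chosen by their measured Trdc count, which is given as a description throughout, and the class itself was named by the authors from clusters, by their RNA and surface proteins. The class was a single cluster, number 2, and the class annotated dgT, taken here as the γδ T class, was another single cluster, number 16.

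The study captured CD45+ immune cells from the liver of C57BL/6 mice aged 10 weeks on BD Rhapsody beads, and counted messenger RNA together with 49 surface antibodies in the same cells. In TG mice the mouse CD4 promoter drives a human TGF-β receptor II that acts as a dominant negative, a model of autoimmune cholangitis, and WT mice carry no transgene. There was 1 library per genotype: TG cells shared a capture with IFN-γ ARE-Del-/- cells, and WT cells shared the other with P40-/-IL-2Ra-/- cells, which are not compared here. Genotype and library therefore cannot be told apart, no test between genotypes was possible, and cells of 1 library are not replicates, so each interval below is a 95% interval that covers counting error only. The age is that of the labels, and the study's methods give a younger one for its preparations of liver cells. How many mice gave the cells of a genotype is not given in the sources used here.

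An αβ T cell reads peptide on MHC molecules through a receptor built from Trac and Trbc1 or Trbc2, whereas a γδ T cell assembles Trdc with one of the γ constant genes (Tcrg-C1, Tcrg-C2 or Tcrg-C4) and is not restricted in that way. Both receptors are carried to the surface by the CD3 chains. The CD8αα homodimer, which lacks the β chain encoded by Cd8b1, is found on innate-like T cells of epithelia and liver, many of them γδ cells. Mouse γδ T cells fall into a type 1 programme, with T-bet and IFN-γ, and a type 17 programme, with IL-17A. The δ locus lies inside the α locus: on GRCm38 the annotation places Trdc at chr14:54142851-54148868 and Trac downstream at chr14:54220521-54224206, both on the plus strand.

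The label was set beside 4 markers, Trdc, Tcrg-C1, Cd8a and Cd7, as a description: Trdc chose the cells, and the class was named from the expression of these same cells. Of the 82 WT cells, 72.0% held a Tcrg-C1 UMI (a unique molecular identifier, or counted molecule), 56.1% a Cd8a UMI and 100% a Cd7 UMI; Cd7 encodes a surface glycoprotein of T and NK cells. Cd8b1 was found in only 6 of the 82 cells, against 70.3% of cells of the WT CD8αβ class. In the 20 TG cells Tcrg-C1 was found in 12 cells, Cd8a in 6 and Cd7 in all 20. Every one of the 82 WT cells held at least 1 UMI of a γ constant gene, and 99 of the 112 Trdc-negative WT cells of the class did too (88.4%, 81.0 to 93.7). Mature B cells, which should lack the receptor, held one in 6.16% of cells and NKT cells in 62.8%, so a γ constant transcript alone did not set the Trdc-positive cells apart.

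In WT mice 42.3% of the CD8αα class was Trdc-positive (35.2 to 49.6) and in TG mice 4.88% (3.00 to 7.43). The WT value was thus 37.4 percentage points above the TG one, with an interval of 30.2 to 44.6. Among all cells of a genotype, Trdc-positive CD8αα cells made up 1.13% in WT mice (0.897 to 1.40) and 0.430% in TG mice (0.263 to 0.664), a difference of 0.696 points (0.376 to 1.00). Trdc-negative CD8αα cells numbered 112 of 7282 WT cells and 390 of 4647 TG cells, so the share within the class also reflects their number. The median cell of the class held 2702 UMIs in WT and 3168.5 in TG mice, so the lower TG share was found in the deeper cells. After each cell was thinned to 1000 UMIs, which left out no cell of the class, 35.1% of WT and 3.41% of TG cells kept a Trdc UMI.

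**Figure D1:**
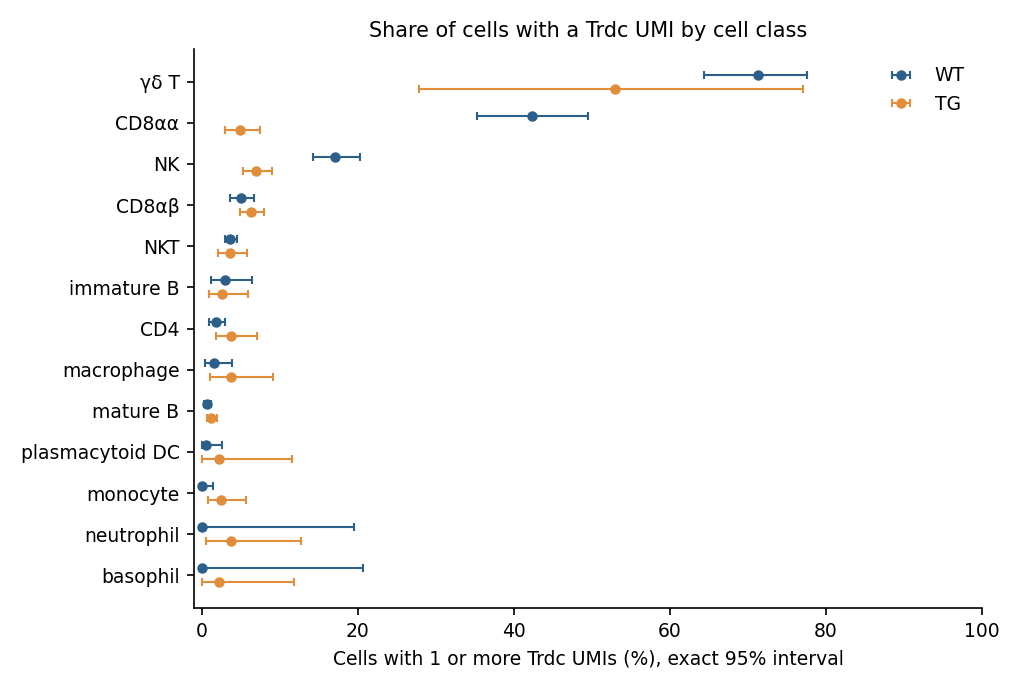
Percent of cells with 1 or more Trdc UMIs (x axis) in each annotated class except the one named other (y axis), WT in blue and TG in orange. Points are shares and bars exact 95% intervals. The WT CD8αα class stood at 42.3% and the TG one at 4.88%, while mature B cells stood at 0.602% and 1.12%.

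Background from free RNA was read from mature B cells, of which 0.602% in WT (0.276 to 1.14, median depth 2044.5 UMIs) and 1.12% in TG mice (0.582 to 1.95, median depth 2923 UMIs) held a Trdc UMI. Both intervals of the CD8αα class lay above those of the mature B cells of the same genotype. In TG mice, however, immature B cells held Trdc in 2.59% (0.846 to 5.94) and macrophages in 3.67% (1.01 to 9.13). These intervals overlapped that of the TG CD8αα class, so the TG share at 1 or more UMIs was not clear of every such class. Each positive cell of these 2 classes held a single Trdc UMI, at median depths of 5965 and 5124 UMIs. With 2 or more Trdc UMIs the TG shares were 0% in both and 3.66% in the CD8αα class, whose median depth was 3168.5 UMIs. With cells thinned as above the shares were 0% (0 to 1.89), 0% (0 to 3.33) and 3.41% (1.88 to 5.66). The thinned intervals still overlapped. In WT mice the γδ T class held Trdc in 137 of 192 cells (71.4%, 64.4 to 77.6), the NK class in 17.1%, the CD8αβ class in 5.01% and the NKT class in 3.63%. In TG mice the share was 6.98% in the NK class and 6.27% in the CD8αβ class, and the interval of the CD8αα class (3.00 to 7.43) held both. Trdc-positive CD8αα cells averaged 5.73 Trdc UMIs each in WT mice, and Trdc-positive cells averaged 5.40 in the γδ T class, 5.24 in the CD8αβ class, 4.89 in the NKT class and 1.49 in the NK class. A high Trdc count per positive cell was therefore not particular to the CD8αα and γδ T classes. Of all 2042 Trdc UMIs of WT cells, 23.0% lay in the CD8αα class and 36.2% in the γδ T class. In TG mice, where the γδ T class had only 17 cells, the 2 shares were 13.4% and 11.4% of 942 UMIs, and the CD8αβ class held 470 of those UMIs.

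The 82 WT cells held 1 to 16 Trdc UMIs, with a median of 5, and most stood well inside the rule. At the threshold 112 WT cells had none, 7 had 1 and 7 had 2. The 20 TG cells were more unequal: 5 held a single UMI, none held 2, and the other 15 held 3 to 22. WT members had a median depth of 2686 UMIs and WT Trdc-negative cells one of 2713.5, so depth was nearly equal between them.

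**Figure D2:**
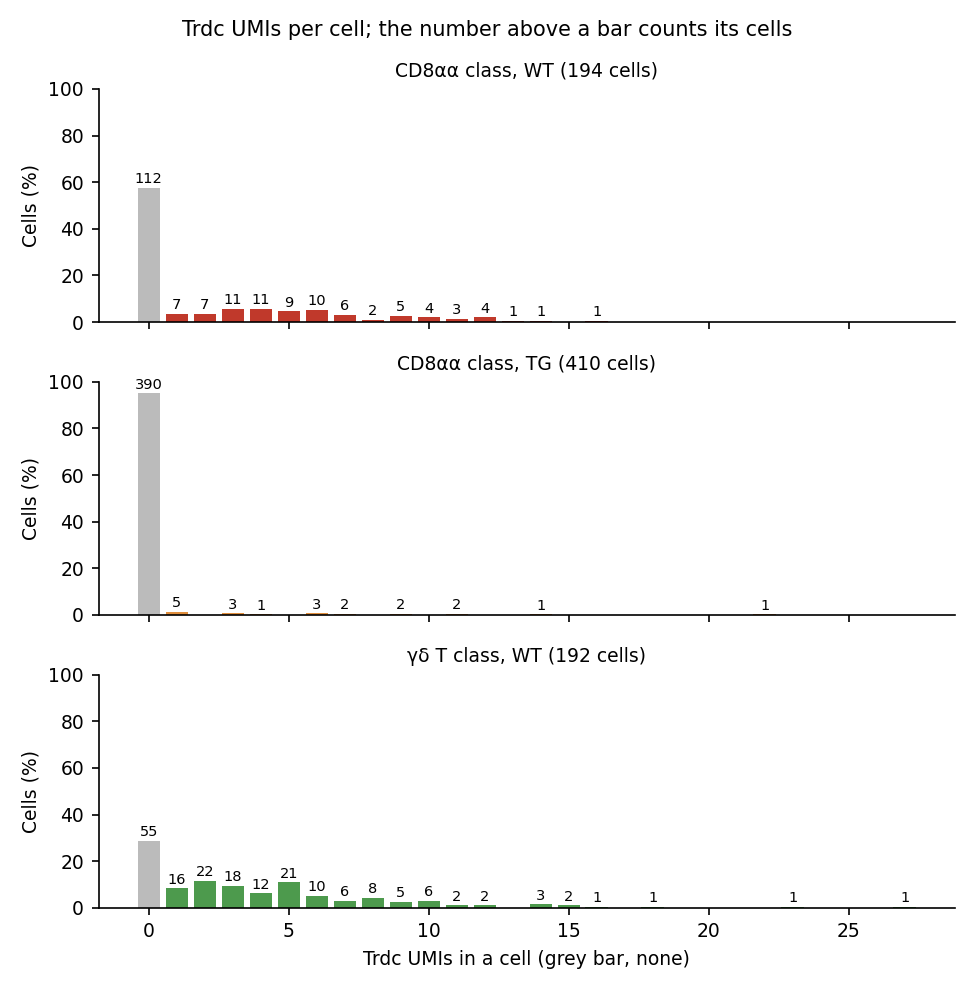
Percent of cells (y axis) at each Trdc UMI count (x axis) in the WT CD8αα, TG CD8αα and WT γδ T classes; grey bars are cells with none, and numbers count cells. WT CD8αα cells ran from 1 to 16 UMIs with a median of 5 among the 82 positive cells, whereas only 20 of 410 TG cells held any.

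The first question was whether cells with a δ transcript also lacked the α chain. Trac, the α constant gene, was found in 26 of the 82 Trdc-positive WT cells (31.7%) and in 102 of the 112 Trdc-negative ones (91.1%). Its summed level was 411 UMIs per 1000000 UMIs of the set (CPM) in the positive set (333 to 502) and 1640 CPM in the negative set (1502 to 1787), a log2 ratio of -1.996 (-2.33 to -1.68). The intervals did not overlap, and the positive set was the lower one. Trac was also found in 19.1% of WT mature B cells and 20.5% of WT NK cells, classes that should not use it. In TG mice Trac was at 809 CPM in the 20 positive cells (14 of 20 cells) and 1558 CPM in the 390 negative cells, a log2 ratio of -0.94 (-1.36 to -0.56).

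Trac was also read by the number of Trdc UMIs. It was found in 6 of the 7 WT cells with 1 Trdc UMI, in 6 of the 29 with 2 to 4 and in 14 of the 46 with 5 or more. The interval of the 7 cells with 1 Trdc UMI was wide (42.1 to 99.6%) and held the 91.1% of Trdc-negative cells, while those of the cells with more lay below it. In TG mice 4 of the 5 cells with 1 Trdc UMI held Trac, and none of those 5 held Tcrg-C1; among the 15 TG cells with 2 or more Trdc UMIs, 10 held Trac and 12 held Tcrg-C1. Restricting the positive set to 2 or more Trdc UMIs moved the Trac log2 ratio in WT mice to -2.47.

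**Figure D3:**
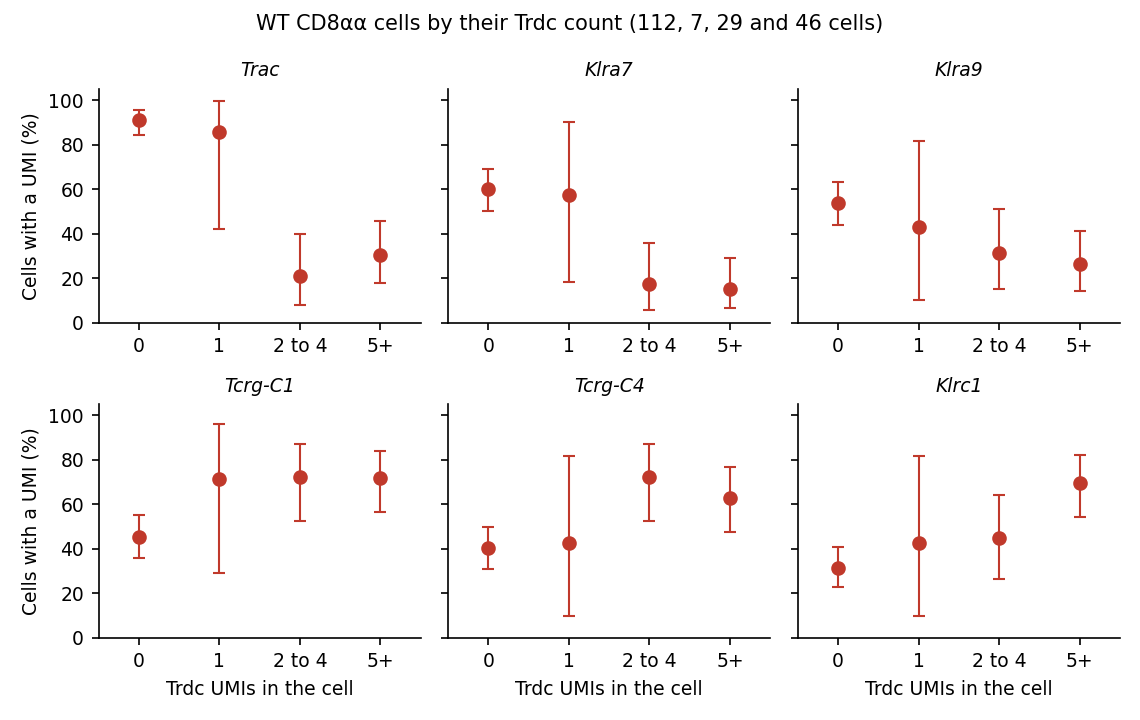
Percent of WT CD8αα cells with a UMI of each gene (y axis) by the number of Trdc UMIs in the cell (x axis); points are shares and bars exact 95% intervals. Trac was found in 91.1% of cells without Trdc and in 20.7% at 2 to 4 UMIs, and Klrc1 in 31.3% of cells without Trdc and in 69.6% at 5 or more.

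The β constant genes were lower in the positive set too, and both were still detected. Trbc1 stood at 248 CPM (189 to 321) against 556 CPM (477 to 645), a log2 ratio of -1.16 (-1.62 to -0.73). Trbc2 stood at 1431 CPM (1281 to 1592) against 2480 CPM (2310 to 2660), a log2 ratio of -0.79 (-0.98 to -0.61), and 91.5% of positive cells held it. The γδ T class was mixed in these genes: its 137 cells with Trdc had Trac at 280 CPM, Trbc1 at 256 CPM and Trbc2 at 1302 CPM, and its 55 cells without Trdc had 928, 355 and 2112 CPM. Trbc1 and Trbc2 are near-identical copies, as are several γ constant genes, so reads may be split between them. Segments that a rearranged β chain uses were rare: 3 UMIs over 17 Trbv segments in the positive set and 18 in the negative set.

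On the γ side, Tcrg-C1 was at 707 CPM (603 to 823) in the positive and 417 CPM (349 to 495) in the negative WT cells, a log2 ratio of 0.76 with a lower bound of 0.42. Tcrg-C4 was at 553 CPM (461 to 657) against 256 CPM (203 to 318), a log2 ratio of 1.11 (0.70 to 1.53), the only γ constant gene past 2-fold. Tcrg-C2 did not separate the sets, at 621 and 682 CPM with a log2 ratio of -0.14 (-0.45 to 0.17). In TG mice Tcrg-C1 was at 520 against 153 CPM (1.77 in log2, 1.21 to 2.29), while Tcrg-C4 stood at 361 and 272 CPM (0.41, -0.24 to 1.00). The difference between genotypes was not tested, and TMM scaling (trimmed mean of M values) shifted the median log2 ratio of all genes in the TG comparison by -0.15.

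Variable segments were sparse in these counts, so they are given as UMIs and cells. Of the 82 WT positive cells, 41 held a UMI of one of 4 γ variable segments: Trgv2 was found in 29 cells, Tcrg-V1 in 14, Tcrg-V4 in 5 and Tcrg-V6 in none. The γδ T class held Tcrg-V6 in 10 cells. Trgv2 was nearly as frequent among Trdc-negative cells (32 of 112), so it did not mark the positive set. δ variable and joining segments gave 14 UMIs in 10 positive cells and 3 UMIs in 3 negative cells. At these counts no order among the rarer segments can be read.

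Across the transcriptome the Trdc-positive and Trdc-negative WT cells were within 2-fold of each other in most genes. Each set was summed, and of 3505 genes with at least 30 UMIs over both sums, Trdc left out, 55 (1.57%) were at least 2-fold higher in the positive set and 68 (1.94%) at least 2-fold lower. No fold was tested, since both sets came from 1 library, and the counts describe these cells. The median log2 ratio of all genes compared was 0.00, and the CD3 complex and proximal signalling genes, of which 12 reached that minimum, had a median of 0.08 and none past 2-fold in either direction. Cd3e, a CD3 chain, stood at 1452 and 1485 CPM (log2 ratio -0.03, -0.24 to 0.17), and Lck, the kinase that starts receptor signalling, at 912 and 859 CPM. The 12 genes compared of the cytotoxic granule and death ligand list had none past 2-fold and a median of 0.02, with 3 intervals below 0. For each of these 2 lists, none of 12 genes is near the background of 1.57% and 1.94%, so neither count is a result about its genes.

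Among killer cell receptors Klrc1 was higher and Klra7 lower in the positive set. The list held the lectin-like receptors and the immunoglobulin-like receptors Ncr1 (NKp46), Cd160 and Cd244a. Many of the lectin-like receptors read MHC class I or related ligands on NK cells and some T cells. Of the 17 that reached the minimum, Ncr1 among them (266 and 202 CPM), 1 was at least 2-fold higher in the positive set and 5 at least 2-fold lower (median log2 ratio -0.30), beside 1.57% and 1.94% of all genes. Of the 17, 5 had under 30 UMIs in the positive set and 1 in the negative set, so the minimum helped to select genes that are lower in the positive set and the count is no support. The higher one was Klrc1, which encodes the inhibitory receptor NKG2A: 488 CPM (403 to 587) against 224 CPM (175 to 283), a log2 ratio of 1.12 (0.68 to 1.57). Its partner chain Klrd1 (CD94) was at 1084 and 1276 CPM. The lower ones were Klra7, Klra1, Klra6, Klrb1a and Klrb1b, of which the Klra genes encode Ly49 receptors. Klrb1a and Klrb1b rested on few molecules, with 7 against 30 UMIs and 6 against 25.

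Klra7 was at 240 CPM (181 to 311) in positive cells and 967 CPM (861 to 1081) in negative cells, a log2 ratio of -2.01 (-2.45 to -1.60). It was found in 16 of 82 positive and 67 of 112 negative cells, and by Trdc count in 57.1% of cells with 1 UMI, 17.2% with 2 to 4 and 15.2% with 5 or more. Klra1 was at 81.4 against 281 CPM (-1.79, -2.59 to -1.06) and Klra6 at 64.2 against 180 CPM (-1.49, -2.41 to -0.65). Klra9 was at 394 against 711 CPM (-0.85, -1.22 to -0.50), short of 2-fold, and Klra5 at 702 against 866 CPM (-0.30, -0.59 to -0.02). Klra genes are a family of close copies, so reads may be shared among them. Klrb1c, the NK1.1 gene, was at 630 and 954 CPM, and the activating receptor genes Klrk1 (570 and 471 CPM) and Ncr1 (266 and 202 CPM) had intervals of the log2 ratio that included 0.

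Within TG mice Klra7 was again lower in the positive cells, at 997 against 1416 CPM (log2 ratio -0.51, -0.87 to -0.16), and Klrc1 stood at 202 against 117 CPM with an interval that included 0 (0.79, -0.12 to 1.58). Klra5 was at 289 against 147 CPM in TG mice, but its 20 UMIs came from 3 of the 20 positive cells, 9 of them from 2 cells with a single Trdc UMI and 11 from 1 cell with more, and the share of cells with it was 15.0% against 14.1%.

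The genes ranked highest in positive over negative WT cells included, beside Klrc1 and Tcrg-C4, Jaml, Gramd3, Ncf1, Exoc3, Hsd17b12, Dpy19l1 and Ythdf2. Jaml encodes a junctional adhesion molecule known as a costimulator of epithelial γδ T cells, and was at 154 CPM (36 UMIs) against 47.4 CPM (15 UMIs), a log2 ratio of 1.70 (0.80 to 2.68). In TG mice it stood at 318 and 191 CPM (0.73, 0.03 to 1.37), and in the WT γδ T class at 687 CPM, above both CD8αα sets. Ncf1 rested on 24 and 9 UMIs and reversed when cells were thinned to 1000 UMIs. The lowest ranked beside the receptor genes were Slc4a1ap, Zc3h14, Ttc17, Zbtb38 and Lamtor4, with 5 to 17 UMIs in the positive set.

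Among 25 lineage and fate transcription factors that reached the minimum, 3 were at least 2-fold higher in the positive set, none was 2-fold lower, beside 1.57% and 1.94% of all genes, and the median log2 ratio was 0.24. They were Rora (116 against 56.9 CPM, 1.02, 0.11 to 1.97), Tcf7 (133 against 66.3 CPM, 1.00, 0.16 to 1.87) and Klf2 (154 against 75.8 CPM, 1.02, 0.24 to 1.83), on 45, 52 and 60 UMIs over both sets. All 3 sat at the threshold and were below it under TMM scaling, at 0.97, 0.95 and 0.97, where 0 factors were 2-fold higher and 1, Nr4a2 at -1.04, was 2-fold lower. Tcf7 encodes TCF-1 and Klf2 a factor that keeps T cells able to leave tissue. Runx1 was just short, at 146 against 75.8 CPM (0.94, 0.15 to 1.76). Tbx21, which encodes T-bet, did not separate the sets (180 and 205 CPM), nor did Ifng (300 and 284 CPM). Of the 17 immediate early genes compared none passed 2-fold, which at 1.57% and 1.94% of all genes is near the background, with Egr1 at 398 and 265 CPM and Nr4a1 at 171 and 101 CPM. Of these 17, 5 had intervals of the log2 ratio above 0 and 0 below, and of the 25 transcription factors 7 and 0. The share of all genes with such intervals is not given here.

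Several genes of the cytotoxic, chemokine and adaptor lists were high in both sets, and several were lower in the positive one by less than 2-fold. Others were not detected. Of 16 cytotoxic genes 2 had 0 UMIs in the positive set and 0 in the negative set, and of 16 cytokine and chemokine genes 3 and 6 did. Gzmb, a granule protease, was at 4296 CPM (93.9% of cells) against 5349 CPM, and Gzma at 2617 against 3832 CPM (-0.55, -0.69 to -0.41). Ccl5 was at 10639 against 12663 CPM and Xcl1 at 1174 against 1513 CPM, both chemokines of killer lymphocytes, and Ccl3 at 308 against 556 CPM (-0.85, -1.27 to -0.45). The ITAM adaptor genes Fcer1g (1974 against 2417 CPM) and Tyrobp (1285 against 1801 CPM), which couple NK receptors to kinases, were lower in the positive set too. Nkg7 was level, at 2334 and 2212 CPM (0.08, -0.09 to 0.24), as was Cd160 at 908 and 926 CPM. Cd8a, a marker of the class, was at 891 CPM against 1261 CPM (-0.50, -0.75 to -0.26).

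Set against the γδ T class, the Trdc-positive CD8αα cells differed in more genes. Both classes were named from RNA and surface protein profiles of these cells, so all values of this comparison are a description, and it shares its positive cells with the comparison above. Of 4428 genes compared, 398 (8.99%) were at least 2-fold higher in Trdc-positive CD8αα cells and 432 (9.76%) at least 2-fold lower. Under TMM scaling, which shifted the median log2 ratio of all genes by -0.12, the counts were 310 and 507. With totals that left out ribosomal and mitochondrial genes, a shift of -0.11, they were 320 and 500. The median percent of mitochondrial UMIs was 4.27 in the positive set and 7.07 in the γδ T class.

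Type 17 γδ genes were lower. The summed level of the 22 measured was 428 CPM in the positive set and 11006 CPM in the γδ T class. Of these, 20 reached the minimum of 30 UMIs, 19 of them only through the γδ T class, so that all 20 were at least 2-fold lower follows largely from the minimum and is no support. Il17a, the gene of IL-17A, had 0 UMIs in the 82 cells and 322 CPM in the γδ T class, so it was at least 25.1-fold lower with the limit set at 3 counts over the set. On the same limit Il1r1 (356 CPM) was at least 27.7-fold lower, Sox13 (367 CPM), a factor of IL-17 γδ cells, at least 28.6-fold and Cd163l1 (968 CPM) at least 75.3-fold. Other members were present but low: Blk, a Src family kinase, at 12.8 against 851 CPM (-6.05, -8.33 to -4.49), Maf at 51.4 against 1017 CPM, Icos at 12.8 against 717 CPM and Il7r, the IL-7 receptor, at 167 against 2056 CPM (-3.62, -4.12 to -3.16). Il17a and Il1r1 had 0 UMIs in Trdc-negative CD8αα cells as well, so they were not detectable at this depth in either CD8αα set.

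The summed level of the 14 type 1 γδ genes measured was higher, 23304 CPM in the positive set and 2235 CPM in the γδ T class. It was 27256 CPM in the Trdc-negative CD8αα cells, so this level was not particular to the positive set. Of these, 12 reached the minimum, 6 of them with under 30 UMIs in the γδ T class. All 12 were at least 2-fold higher (11 under TMM scaling and under totals without ribosomal and mitochondrial genes), beside 8.99% of all genes, but the minimum helped to select such genes and the count is no support. Ifng stood at 300 against 26.4 CPM (3.51, 2.67 to 4.45) and Tbx21 at 180 against 20.7 CPM (3.12, 2.14 to 4.23). Xcl1 was found in 82.9% of positive cells and 1.56% of γδ T cells, at 1174 against 5.65 CPM (7.70, 6.14 to 9.99). The 26 killer receptor genes measured, Ncr1 among them, summed to 7551 CPM in the positive set and 535 CPM in the γδ T class. In the Trdc-negative CD8αα cells the 26 genes summed to 9320 CPM. Of the 26 genes, 13 reached the minimum, 11 with under 30 UMIs in the γδ T class, so that all 13 were at least 2-fold higher is again no support. Fcer1g was at 1974 against 35.8 CPM (5.79, 5.13 to 6.53), Itga1, the α chain of the collagen-binding integrin CD49a, at 591 against 11.3 CPM (5.71, 4.55 to 7.18), and Cd8a at 891 against 67.8 CPM (3.72, 3.20 to 4.27). Il2rb, the IL-2 and IL-15 receptor β chain, was at 2112 against 482 CPM.

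The constant genes of the receptor depended on which γδ T cells were taken. Against the whole class none of the 3 αβ and none of the 3 γ constant genes passed 2-fold, which for 6 genes is near the background of 8.99% and 9.76%. Trac was at 411 and 514 CPM (-0.32, -0.67 to 0.02), Tcrg-C1 at 707 against 1195 CPM (-0.76, -1.01 to -0.51) and Tcrg-C4 at 553 against 292 CPM (0.92, 0.57 to 1.27). Against the 137 cells of the class with Trdc, Trac turned direction and was higher in the CD8αα cells, at 411 against 280 CPM (0.55, 0.13 to 0.98). Tcrg-C1 passed 2-fold lower, at 707 against 1594 CPM (-1.17, -1.43 to -0.92), and Tcrg-C4 was at 553 against 389 CPM (0.51, 0.15 to 0.87). Trbc1 and Trbc2 had intervals that included 0 in this comparison. Trdc itself, which chose the cells, averaged 2013 CPM in the CD8αα cells and 1393 CPM in the whole γδ T class, but 2180 CPM in its 137 cells with Trdc.

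**Figure D4:**
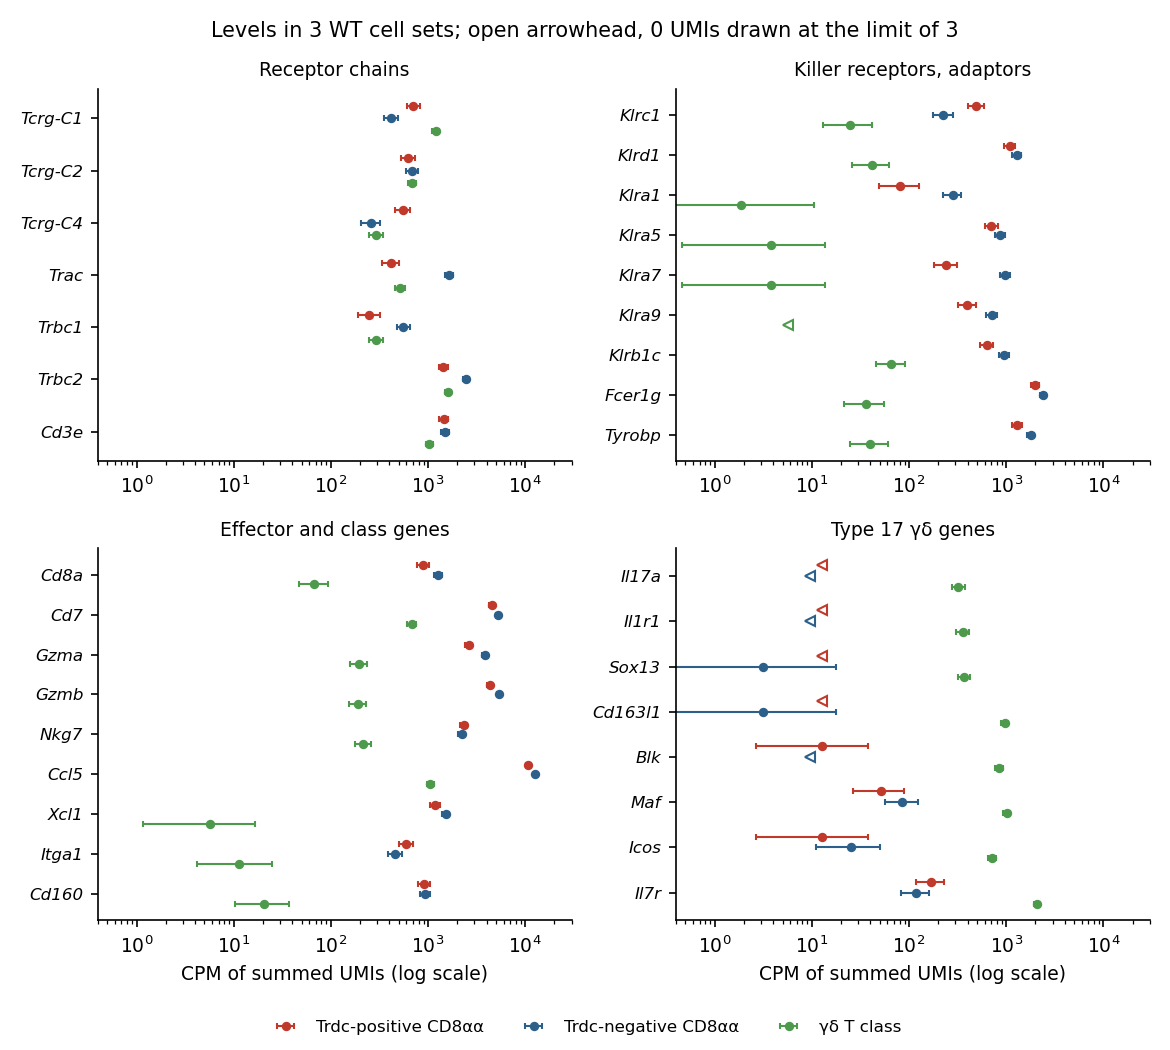
Level of each gene (y axis) in CPM of summed UMIs (x axis, log scale) in WT Trdc-positive CD8αα cells, WT Trdc-negative CD8αα cells and the WT γδ T class; bars are exact 95% intervals and open arrowheads mark 0 UMIs at the limit of 3. The 2 CD8αα sets lie apart at Trac (411 against 1640 CPM) and Klra7 (240 against 967 CPM), and both lie apart from the γδ T class in killer receptors and type 17 genes.

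To place the cells among other lymphocytes, the positive set was compared with 7 other WT cell sets, the immature B cell, pDC and myeloid classes not among them, after both sums were thinned to 233478 UMIs. The share of genes at least 2-fold apart was 3.53% for Trdc-negative CD8αα cells, 7.3% for NK, 9.03% for NKT, 17.2% for CD8αβ, 19.5% for CD4, 19.8% for the γδ T class and 27% for mature B cells. The median absolute log2 ratio was 0.248 for Trdc-negative CD8αα cells, 0.280 for NK, 0.337 for NKT, 0.441 for the γδ T class, 0.448 for CD8αβ, 0.466 for CD4 and 0.547 for mature B cells. The 2 CD8αα sets share 1 cluster of the authors, formed from the profiles of these same cells. That the Trdc-negative set stood nearest was thus largely fixed by the annotation and is no support. The order was not tested, and the CD8αβ, CD4 and γδ T classes changed places between the 2 measures.

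Surface antibodies gave a readout that the Trdc count had not used, although antibodies such as CD3, CD8β and NK1.1 had helped to name the classes. Values are the authors' centred log ratio (CLR, natural log) per cell. The antibody to TCRβ had a median of 0.884 in positive (quartiles 0.704 and 1.11) and 1.28 in negative WT cells (0.905 and 1.62), 0.395 lower, and the quartile ranges overlapped. The positive median lay near those of the γδ T class (0.969, with 0.853 in its cells with Trdc and 1.87 in those without) and NK cells (0.801) and below that of CD8αβ T cells (2.80). In sums, TCRβ took 0.855% of all antibody counts of the positive set (0.795 to 0.918) and 1.38% of those of the negative set (1.32 to 1.44). By Trdc count the TCRβ median was 1.11 in cells with 1 UMI, 0.880 with 2 to 4 and 0.871 with 5 or more. In TG mice it was 1.32 in positive and 1.61 in negative cells. The CD3 antibody was not lower in positive than in negative WT cells, with medians of 0.547 and 0.425. Both medians lay below the 1.04 of the γδ T class.

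Of the 49 antibodies, 37 had medians within 0.1 of each other in the 2 WT sets, and 4 differed by more than 0.3: CD24, TER-119, TCRβ and CD11c. CD8β, which marks CD8αβ T cells (median 1.55), stood at 0.489 and 0.483. CD49a, a mark of liver-resident killer lymphocytes, was high in both, at 3.01 and 2.91, and NK1.1 was level at 0.839 and 0.844. Against the γδ T class 9 antibodies differed by more than 0.5. CD49a was at 0.348 in the γδ T class, CD103 at 2.04 against 0.204 in the positive set, CD90.2 at 5.42 against 3.29 and CD44 at 4.34 against 3.14. CD11c was at 0.907 in positive cells and 0 in the γδ T class, and its gene Itgax stood at 527 and 5.65 CPM.

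**Figure D5:**
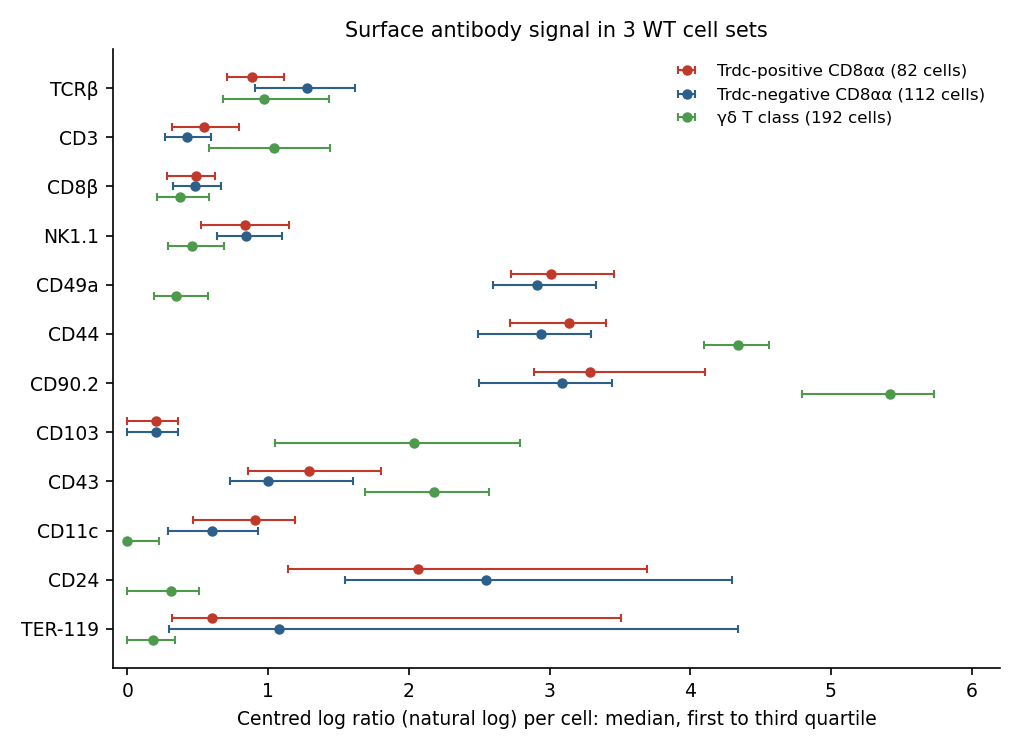
CLR of 12 surface antibodies (x axis, natural log) in the 3 WT cell sets; points are medians over cells and bars run from the lower to the upper quartile. TCRβ was lower in Trdc-positive (0.884) than Trdc-negative (1.28) CD8αα cells, while CD49a, CD90.2, CD44 and CD103 set both apart from the γδ T class.

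Signs of other material moved with these sets and are given as measured. TER-119, an erythroid antibody, had a median of 0.598 in positive and 1.07 in negative WT cells with upper quartiles of 3.51 and 4.34, CD24 had medians of 2.06 and 2.55, and both were low in the γδ T class. Haemoglobin gave 720 UMIs in the positive set, with 3 or more in 2 of its 82 cells, and 1953 in the negative set, with 3 or more in 7 of its 112 cells, but 0 in the 20 TG positive cells. Without the cells with 3 or more haemoglobin UMIs, the TCRβ difference was -0.411 and the counts of genes past 2-fold were 48 higher and 56 lower. The summed level of the 7 erythroid genes was 3259 CPM in positive, 6423 CPM in negative and 7.53 CPM in γδ T cells, that of the 13 B cell genes 578, 480 and 1013 CPM, and that of the 15 myeloid genes 874, 720 and 520 CPM. The myeloid list includes Itgax, the gene of CD11c, at 527 CPM in the positive set and found in 65.9% of its cells. The myeloid sum therefore cannot be read as other material alone. In the 82 cells 4 of the 13 B cell genes, 5 of the 15 myeloid genes and none of the 7 erythroid genes were at 0 UMIs. Cd79a had 1 UMI and C1qa none, but Igkc and Ighm had 46 UMIs each, Cd74 33, Itgax 123 and Cst3 51, and the haemoglobin gene Hba-a1 had 243. Igkc was at least 2-fold higher than in negative cells, at 197 against 85.3 CPM (log2 ratio 1.21, 0.49 to 1.95), but not with equal weight for each cell. The part of this material in the other results was not tested. Doublets were called in 4 of the 82 positive, 6 of the 112 negative and 9 of the 192 γδ T cells, and no cell was removed for it.

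The TG and WT members could be set side by side only across libraries, and TMM scaling shifted the median log2 ratio of that comparison by -0.16. The B cell genes measured summed to 1503 CPM in the TG and 578 CPM in the WT members and the erythroid genes to 14.5 and 3259 CPM. The myeloid genes, Itgax among them, summed to 1156 and 874 CPM. The part of these genes in the values that follow was not tested. Gzma was at 7197 CPM in the 20 TG cells (6579 to 7858) and 2617 CPM in the 82 WT cells, Klra7 at 997 and 240 CPM, and Klrc1 at 202 and 488 CPM. Klra7 and Klrc1 differed in the same direction between TG and WT Trdc-negative cells, by the levels given above. The cytotoxic list summed to 16505 CPM in TG and 12669 CPM in WT members, and to 18849 and 15042 CPM in the Trdc-negative cells. Within TG mice 0 of its 13 genes compared had an interval above 0 in positive over negative cells. A higher cytotoxic level in TG mice was therefore not particular to the members. In TG members Klra7 was at 1814 CPM in the 5 cells with 1 Trdc UMI and 741 CPM in the other 15. Cd4 was found in 8 of the 20 TG and 3 of the 82 WT cells, at 116 CPM (49.9 to 228) and 17.1 CPM (4.67 to 43.9). The CD4 antibody had medians of 1.74 in TG and 0.580 in WT members, and of 1.61 and 0.537 in Trdc-negative cells. Tgfbr2, the mouse gene of the receptor that the transgene copies from human, was at 361 CPM (234 to 533) in TG and 154 CPM (108 to 213) in WT members, and whether transgene reads count toward it is not given in the sources used here. In the same TG cells Il17a had 0 UMIs and CD49a had a median of 2.71, with 0.647 in the TG γδ T class of 17 cells.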

How the data were processed

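CD45+ liver cells of WT and TG mice were measured in 2 libraries, 1 per genotype. The authors deposited RNA and antibody counts (UMIs per cell, BD Rhapsody pipeline 1.9, STAR, mm10), antibody values on a natural log scale (Seurat centred log ratio), the percent of mitochondrial UMIs per cell, clusters and cell type names. The deposited RNA counts covered 13528 genes in 11929 cells. The filter on cells is not given in the sources used here. Log-normalised RNA values were not used.

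Cells of the class cd8aa with at least 1 Trdc UMI were taken as positive. The members and the gene lists were chosen with earlier results of these data known. UMIs were summed per set and divided by the total to give CPM with exact Poisson 95% intervals. Ratios have exact conditional binomial intervals, shares Clopper-Pearson intervals and differences of shares Newcombe intervals. All cover counting error only, and no test was run since there was 1 library per genotype. A gene with at least 30 UMIs over both sums was compared for a 2-fold difference, with Trdc left out. A log2 ratio with a sum of 0 used a pseudocount of 0.5, and its printed bound rests on 3 counts. Named genes were those of 22 lists and, per WT comparison, the 10 highest and 10 lowest genes ranked by the interval bound nearest to 0, found in at least 10 cells, with under 50% of UMIs in the top 3 cells and the same direction under every scaling. Segments, Trdc, sex-linked, haemoglobin and immunoglobulin genes were left out of the ranking. Some results are not reported here. Doublets were called by Scrublet in scanpy 1.11.5 at an expected 5%, which marked 3.31% of WT and 0.839% of TG cells, and were kept. Among the filtered cells, 36 cell numbers occurred in both libraries, and Trdc counts differed from the library files in 0 cells. Alternatives were a Trdc count of 2 or more, TMM scaling (edgeR 4.0.16, R 4.3.3), other totals, equal weight per cell, thinning to 1000 UMIs, other UMI minimums, and leaving out doublets or cells with haemoglobin. The intervals and the direction of the log2 ratios were tested on simulated summed counts with Poisson error. That simulation held no spread between cells and did not test the summing or the 2-fold calls. Python 3.11.15, numpy 2.4.6, scipy 1.17.1 and pandas 2.3.3 were used.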

Additional observations from a re-analysis of the deposited data

Results flagged for a closer look

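In 4 of the 157 listed or ranked genes that reached the minimum in both genotypes (2.55%) the ratio of Trdc-positive to Trdc-negative CD8αα cells ran in opposite directions in WT and TG mice, with both intervals clear of 0. Igkc, an immunoglobulin light chain gene, had a log2 ratio of 1.21 in WT (0.49 to 1.95) and -0.85 in TG mice (-1.27 to -0.46). With equal weight for each cell the WT ratio of Igkc was below 2-fold. Itga1 had 0.36 in WT (0.01 to 0.70) and -0.62 in TG mice (-1.23 to -0.07), and Klra5 had -0.30 (-0.59 to -0.02) and 0.98 (0.24 to 1.65). The TG value of Klra5 rests on 20 UMIs in 3 of the 20 positive cells, 11 of them in 1 cell, and its interval treats UMIs as independent and does not cover the spread between cells. Ppp1r15a, a stress response gene, had 0.57 in WT (0.18 to 0.96) and -0.76 in TG mice, whose interval ended just below 0. The difference between genotypes was not tested for these genes, and it cannot be told apart from the library.

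Cells of the library files that carry no genotype name in the filtered table were used in no comparison. Trdc was found in 4.74% of 5379 such cells from the pool with TG mice (4.19 to 5.34) and in 2.01% of 16829 from the pool with WT mice (1.80 to 2.23), above the 1.12% and 0.602% of mature B cells of TG and WT mice. Mature B cells are only a background here, since the classes of these cells are not named. In counts, 255 of 5379 and 338 of 16829 held Trdc, against 202 of 4647 TG and 479 of 7282 WT named cells of all classes. With 2 or more UMIs the shares of the unnamed cells were 2.47% and 1.05%.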

How the results depend on the processing

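No paired analysis was possible because each genotype had 1 library and no test was run, and for the same reason no replicate could be left out. With each cell thinned to 1000 UMIs, the WT share of Trdc-positive cells was 35.1%, the genes past 2-fold against Trdc-negative cells were 24 higher and 26 lower, those against the γδ T class 158 higher and 216 lower, and Ncf1 reversed to a log2 ratio of -0.87. Thinning leaves fewer genes that reach the minimum of 30 UMIs. With a minimum of 10 UMIs the counts were 403 higher and 431 lower against Trdc-negative cells and 957 and 998 against the γδ T class. With a minimum of 100 UMIs they were 3 and 5, and 98 and 130. The minimum also sets how many genes are compared, so these counts are not shares and cannot be set directly beside the reported ones. The other 37 of 50 values of the comparisons, 882 of 933 gene values and 268 of 308 list medians stayed within the interval of the reported value, the spread over cells for the antibody, 1.5 times for counts and 0.25 (log2) for list medians, and none of the comparisons reversed. The number of TG members, 20 cells with 69192 UMIs, limits every TG value, and most genes near 2-fold against Trdc-negative cells rest on few UMIs.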
